A study of Mus musculus with 8 samples.

Results

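NFIX and NFIA binding was compared in granule neuron progenitors, the proliferating cells of the young cerebellum from which its granule neurons arise, in mice of postnatal day 7. Chromatin immunoprecipitation followed by sequencing (ChIP-seq) had been made with a Sigma Aldrich antibody to NfiX and an Abcam antibody to NfiA. Each factor had 1 library from CD1 mice and 1 from mice whose background the labels call mixed and similar to outbred CD1, so 4 of the 8 samples of the series were compared. No genotype, transgene or treatment is named for any of them, and the cells of every library were released with papain. The 2 NfiB libraries, 1 per background, served as an outside readout, and the 2 input libraries were not analysed here. The labels do not say how many animals went into a library or whether the libraries came from separate animals, so differences between libraries may be technical. For NfiB the sample labels and the design text name different antibodies. Peaks do not measure expression, so the labelled cell type could not be checked against its marker genes, and peaks of bulk cells can come from any cell type present.

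The 4 peak lists were merged wherever peaks overlapped by 1 bp or more, which gave 30190 regions. Regions with a peak in both NfiX libraries and in neither NfiA library are called the NFIX class, and there were 145 of them (0.480% of all regions). The reverse, the NFIA class, held 1632 regions (5.41%), and the shared class, with a peak in all 4 libraries, held 6236 (20.7%). Because the NfiX CD1 list is short, the Mixed libraries were also compared alone. Their 27932 merged regions split into 4515 with a peak of NfiX only (16.2%), 6656 of NfiA only (23.8%) and 16761 of both (60.0%).

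NFIA, NFIB, NFIC and NFIX form the nuclear factor I (NFI) family of transcription factors, which share a conserved DNA-binding domain and bind DNA as dimers. The family's known site is a palindrome in which the arms TTGGC and GCCAA stand 5 bases apart, and a single arm can also be bound, more weakly. In the cerebellum, NFI factors are known for their part in granule neuron maturation, including axon and dendrite formation and migration.

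The sequences below are examples, printed because they hold a form of the site, and most windows read around summits did not hold the full palindrome. It was in 16 of 229 exonic windows of the shared class (6.99%), 0 of 115 of the NFIA class and 0 of 6 of the NFIX class. The palindrome, searched with every base of both arms required and any 5 bases between, is in capitals, and letters are those of the plus strand of GRCm38 (mm10), read from GENCODE M21 transcripts, noncoding ones included where the place is an intron. Regions found in all 4 libraries are shown first.
Dhx36, exon outside the coding sequence, chr3:62470470-62470498: ccagggcTTGGCATTTTGCCAAaaactaa
Adgra3, exon outside the coding sequence, chr5:50052647-50052675: tcttgacTTGGCATACTGCCAAaccctgt
Got2, exon outside the coding sequence, chr8:95887052-95887080: gcacccaTTGGCATGGAGCCAAaaaaacg
Regions with a peak in NfiX Mixed and none in NfiA Mixed held the same arms.
Brip1, intron, chr11:86185411-86185439: tcacattTTGGCACTATGCCAAggctgag
Itfg1, intron, chr8:85765000-85765028: acttcaaTTGGCAAGTAGCCAAacatgcc
Med13l, exon outside the coding sequence, chr5:118762532-118762560: tctcattTTGGCATCTAGCCAAcatgaaa
The next sites came from regions with a peak in NfiA Mixed and none in NfiX Mixed.
A2m, coding exon, chr6:121648007-121648035: tagaggcTTGGCACACTGCCAAcgctgtc
Shprh, coding exon, chr10:11164756-11164784: gatcaaaTTGGCCACAAGCCAAgagttca
In the NFIX class itself no window held the full palindrome, and the summits below held it with each arm 1 base shorter (TGGC and GCCA, 5 bases apart, in capitals).
Trip12, exon outside the coding sequence, chr1:84723883-84723912: agtgtatcaccTGGCAAGAAGCCAagcgtg
Gm47388, noncoding gene, exon, chr10:44697332-44697361: tctaagtgtctTGGCTTTGAGCCAgaacaa
In the NFIA class some summits held a single arm with its next base, TTGGCA on either strand, here in capitals.
Nova1, coding exon, chr12:46700423-46700452: gctgctgctgggTTGGCActggcagctgcg

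Most regions that NFIX bound were also bound by NFIA. The NfiX CD1 list held 7497 peaks, NfiX Mixed 21443, NfiA CD1 16993 and NfiA Mixed 23541, and the lists covered 1.99, 6.69, 5.36 and 7.55 Mb. In NfiX CD1, 89.7% of the peaks overlapped a peak of NfiA CD1, and in NfiX Mixed, 78.9% overlapped one of NfiA Mixed. In the other direction 39.3% of NfiA CD1 peaks overlapped NfiX CD1 and 71.7% of NfiA Mixed peaks overlapped NfiX Mixed. The low CD1 share stands beside the length of the lists: NfiX CD1 has the fewest peaks of the 4. With the same number of peaks taken from each library, the 7497 of highest significance, the NFIX class held 367 regions, the NFIA class 449 and the shared class 3872. The NFIA class was thus far the larger on the lists as deposited and slightly the larger at equal length.

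**Figure D1:**
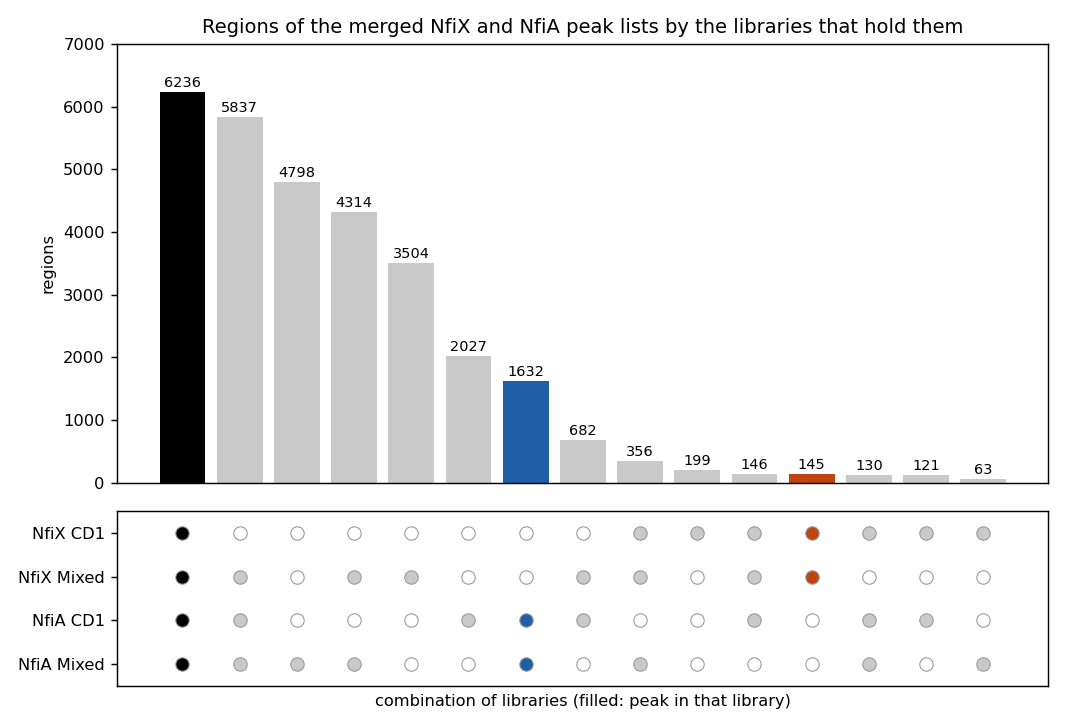
Number of merged regions (y axis) for each of the 15 combinations of the NfiX and NfiA libraries, with filled circles for the libraries that hold a peak. All 4 libraries is the most frequent combination (6236, black); both NfiA without NfiX has 1632 regions (blue) and both NfiX without NfiA has 145 (orange).

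The class sizes moved with single libraries. Without NfiX CD1, the NFIX class rose to 3651 regions and the shared class to 12073, while the NFIA class stood at 1763. Without NfiX Mixed, the NFIX class held 345 and the NFIA class 7480. Without NfiA CD1 they held 292 and 6459, and without NfiA Mixed 501 and 3702. In the CD1 pair alone, 770 regions had a peak of NfiX only, 10323 of NfiA only and 6654 of both. The Mixed pair, whose lists are of similar length, gave 5193 NfiX-only, 5269 NfiA-only and 16088 common regions when the lists were made equal.

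Promoter shares of whole libraries were ordered by factor, and fold values were not once the lists were of equal length. Summits within 1 kb of a protein-coding transcription start site (TSS) made up 2.35% of the peaks of NfiX CD1 and 3.93% of those of NfiX Mixed, against 4.21% for NfiA CD1 and 5.44% for NfiA Mixed. The NfiX values lay below both NfiA values, with means of 3.14 ± 1.12% and 4.82 ± 0.873% (SD, n = 2 libraries each), and an exact two-sided permutation test over the libraries gave p = 0.333, the smallest that 2 against 2 allows. At equal list length the order was the same, at 2.35, 2.92, 3.17 and 3.47%. The median fold enrichment at the summit, a value the authors' peak caller gives relative to the local background, was 5.98 for NfiX in CD1 and 6.03 in Mixed, and 5.79 and 5.51 for NfiA (exact permutation p = 0.333). At equal list length these were 5.98, 9.47, 7.96 and 8.66, so the NfiX library was the lower of the CD1 pair and the higher of the Mixed pair.

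Regions bound by NFIX without NFIA were less often bound by NFIB than the reverse. In the NFIX class 53.8% of regions had a peak in NfiB CD1 and 40.7% in NfiB Mixed, against 95.2% and 89.5% in the NFIA class and 99.1% and 98.2% in the shared class. A peak in both NfiB libraries was found for 48 of 145 NFIX-class regions (33.1%), 1418 of 1632 NFIA-class regions (86.9%) and 6089 of 6236 shared regions (97.6%), against 73.0% of all merged regions. The NFIX class was lower than the NFIA class by 53.8 percentage points (95% Newcombe interval of the difference, NFIX minus NFIA, −61.1 to −45.6). Regions with no NfiB peak in either background made up 38.6% of the NFIX class, 2.27% of the NFIA class and 0.321% of the shared class. They were 10.8% of all merged regions. Intervals here treat regions as independent counts and cover counting error only, since regions of a library are not replicates. The difference depended on the libraries that define the classes. It was −70.7 points without NfiX Mixed, −9.58 without NfiA CD1 and −2.27 (−6.87 to 2.17, which includes 0) without NfiA Mixed. At equal list length it was −17.5, from 301 of 367 NFIX-class and 447 of 449 NFIA-class regions. Most NFIX-class regions thus had a peak in both NfiB libraries at that length, unlike on the lists as deposited. The NfiB lists were not shortened, and the class then also holds regions whose NfiA peaks fell outside the cut. This share therefore does not describe regions without any NfiA peak.

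Within the Mixed pair the order was the same and the difference smaller. NfiB Mixed had a peak in 56.1% of the NfiX-only regions (2533 of 4515), in 73.7% of the NfiA-only regions (4906 of 6656) and in 95.5% of the regions of both, and the NfiX-only share was below the NfiA-only share by 17.6 points (difference −17.6, interval −19.4 to −15.8). In the CD1 pair, scored against NfiB CD1, the shares were 64.8, 92.5 and 98.6%. Where NfiB did have a peak in the NFIX class, its median fold was 6.36 in CD1 and 5.43 in Mixed, close to the 6.50 and 5.31 of the NFIA class and below the 11.9 and 10.4 of the shared class.

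NFIA-class regions lay nearer to genes. A promoter, taken as a summit within 1 kb of a protein-coding TSS, was found in 2 of 145 NFIX-class regions (1.38%), 121 of 1632 NFIA-class regions (7.41%) and 155 of 6236 shared regions (2.49%), against 5.05% of all merged regions. NFIX minus NFIA was −6.03 points (interval −7.73 to −2.33). In the Mixed pair the shares were 3.10% for NfiX only, 8.73% for NfiA only and 4.20% for both, a difference of −5.63 points (−6.47 to −4.78), and in the CD1 pair they were 2.47, 5.39 and 2.40%. More than 100 kb from any protein-coding TSS lay 47.6% of the NFIX class, 30.3% of the NFIA class and 41.4% of the shared class. Of all merged regions, 35.5% lay that far away. The median distance to the nearest TSS was 80.3 kb, 45.4 kb and 69.3 kb in the 3 classes, against 53.4 kb over all merged regions. Introns of protein-coding genes held similar shares, 42.1, 45.3 and 42.0%.

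**Figure D2:**
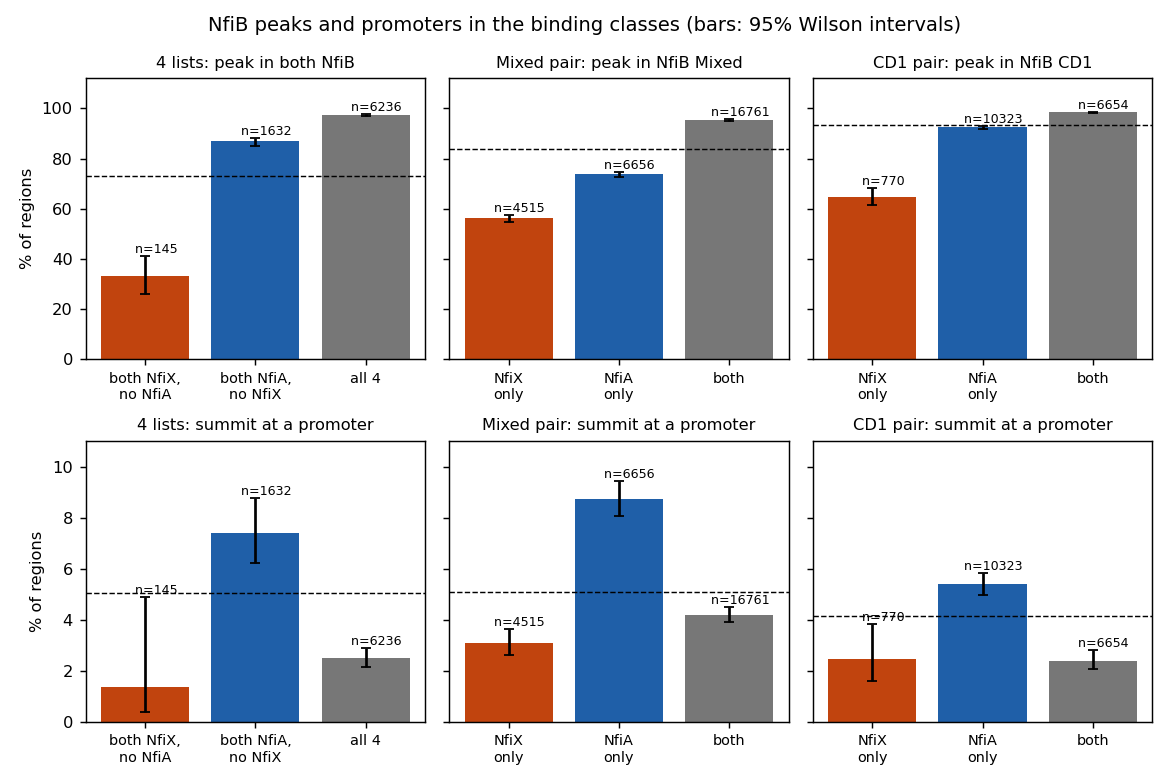
Share of regions (y axis, %) with an NfiB peak (top row) or a promoter summit (bottom row) in the classes from all 4 lists, from the Mixed pair and from the CD1 pair; error bars are 95% Wilson intervals, n is the number of regions and the dashed line is the share of all merged regions of that comparison. The NFIX-side class has the lowest NfiB share in each column (33.1, 56.1 and 64.8%), and the NFIA-side class has the highest promoter share (7.41, 8.73 and 5.39%).

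The peaks of the NFIX class stood mostly on very low local background. For each peak, the number of fragments at the summit and the local background were worked out from the deposited fold and p-value, and a peak is called low-background when its local background is at most 25% above the lowest in its list. Of NFIX-class peaks, 55.2% were low-background in NfiX CD1 and 53.1% in NfiX Mixed, against 14.6% and 13.3% of all peaks of those lists. Of NFIA-class peaks, 8.0% were low-background in NfiA CD1 and 6.85% in NfiA Mixed, against 12.0% and 9.41% of all peaks. The median local background of the NFIX class was 0.969 fragments in NfiX CD1 and 1.07 in NfiX Mixed, and that of the NFIA class was 2.85 in NfiA CD1 and 4.08 in NfiA Mixed. Median summits of the NFIX class held 12 and 14 fragments, and those of the NFIA class 18 and 22. By fold, NFIX-class peaks stood near the middle of their lists (median percentile 48.6 and 52.1) and NFIA-class peaks in the lower part (28.1 and 30.1).

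Local background moved with the NfiB share. Where every peak of a region was low-background, both NfiB libraries had a peak in 20.3% of NFIX-class regions (15 of 74), 68.7% of NFIA-class regions (68 of 99) and 87.4% of shared regions (438 of 501). In the other regions the shares were 46.5% (33 of 71), 88.1% (1350 of 1533) and 98.5% (5651 of 5735). The NFIX class was thus lowest on either side of the line, and the share of its regions that are low-background (74 of 145) is above that of the NFIA class (99 of 1632). Low-background peaks were also left out of the NfiX and NfiA lists and the classes drawn anew, with the NfiB lists kept whole. A region whose only NfiA peaks were low-background could then enter the NFIX class, where 50 of 85 regions had both NfiB. The NfiB difference was then −29.7 points (−40.4 to −19.7) over the 4 lists and −12.0 (−13.9 to −10.1) in the Mixed pair. The promoter difference was −5.44 (−7.68 to 0.516, which includes 0) over the 4 lists and −5.39 (−6.34 to −4.41) in the Mixed pair. Promoters were rare in every class where every peak was low-background: 0 of 74 NFIX-class, 1 of 99 NFIA-class and 6 of 501 shared regions. In the other regions they were 2 of 71 (2.82%), 120 of 1533 (7.83%) and 149 of 5735 (2.60%). Leaving out low-background peaks thus changed the promoter difference little in size. Over the 4 lists it then rested on 2 promoter regions among 85 of the NFIX class. What the low background reflects was not tested.

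Overlap between the factors was higher for stronger peaks in the Mixed pair. With the NfiX Mixed peaks in 4 equal groups by fold, 66.5, 69.9, 82.4 and 97.1% from lowest to highest overlapped an NfiA Mixed peak. For NfiA Mixed peaks the shares in NfiX Mixed were 44.2, 62.9, 81.7 and 98.1%. In CD1 the NfiA peaks went from 9.96 to 21.2, 44.4 and 81.5%, while the NfiX peaks were at 89.8, 85.4, 87.4 and 96.4%, with no steady order in the lower groups. Grouped by local background instead, NfiX Mixed peaks went from 60.7% in the lowest group to 93.6% in the highest, and NfiA Mixed peaks from 68.7 to 75.6%. Among the strongest peaks of either Mixed list, fewer than 3 in 100 had no peak of the other factor, 157 for NfiX and 110 for NfiA. Of these, 61.1% of the NfiX and 86.4% of the NfiA peaks overlapped NfiB Mixed.

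**Figure D3:**
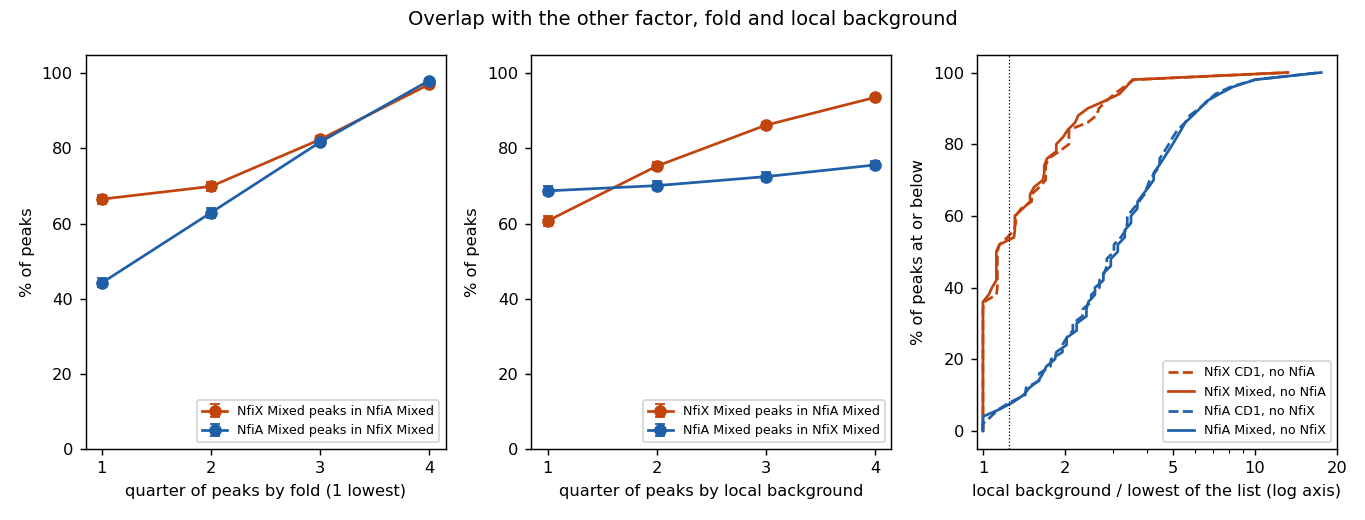
Left and centre, share of NfiX Mixed peaks that overlap NfiA Mixed (orange) and the reverse (blue), with peaks in 4 equal groups from lowest (1) to highest (4) by fold or by local background; error bars are 95% Wilson intervals. Right, cumulative share of NFIX-class (orange) and NFIA-class (blue) peaks by local background relative to the lowest of the list, on a log axis, with the low-background limit dotted: 53.1 to 55.2% of NFIX-class peaks lie at or below it and 6.85 to 8.0% of NFIA-class peaks.

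Few regions of either class sat next to a peak of the other factor. A peak of the other factor lay within 1 kb of 9 of 145 NFIX-class regions (6.21%) and of 139 of 1632 NFIA-class regions (8.52%). Within 10 kb the shares were 21.4% and 35.8%. Where all 4 libraries had a peak, the median distance between an NfiX and an NfiA summit was 25 bp in CD1 and 21 bp in Mixed, and between the backgrounds of a factor it was 23 bp for NfiX and for NfiA. Summits of the factors were therefore no farther apart than summits of the same factor by more than 2 bp.

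In the pairs, the NFI palindrome stood under NfiX-only summits more often than under NfiA-only summits, on few windows for the full form. Whole libraries were not separated by factor for the full form on the lists as deposited. No genome sequence was used here, so windows of 50 bases on either side of a summit were read where they lay inside annotated exons, 217 NfiX-only, 494 NfiA-only and 800 common windows in the Mixed pair. The full palindrome was in 6 NfiX-only windows (2.76%), 3 NfiA-only windows (0.607%) and 19 common windows (2.38%), a difference of 2.16 points between the first and the second (interval 0.266 to 5.32). These few windows include the Brip1, Itfg1 and Med13l sites printed above for NfiX and the A2m and Shprh sites for NfiA. With low-background peaks left out, the difference was 0.837 (−0.397 to 3.53). One of the 6 NfiX-only sites of the Mixed pair lies in Gm5339. It and a site under an NfiA CD1 summit in a coding exon of Nck1 differ at 1 of 29 bases. Reads at these places may thus come from near-identical copies and are uncertain.

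With each arm 1 base shorter, a form chosen after the data had been seen, more of the same windows held the site. In the Mixed pair this palindrome was in 34 of 217 NfiX-only windows (15.7%), 18 of 494 NfiA-only windows (3.64%) and 116 of 800 common windows (14.5%). NfiX only exceeded NfiA only by 12.0 points (7.32 to 17.6), and by 9.93 (5.41 to 15.6) with low-background peaks left out. The CD1 pair gave 10 of 33 (30.3%), 42 of 571 (7.36%) and 66 of 244 (27.0%), a difference of 22.9 points (9.79 to 40.1). Exonic windows 1 kb away held it in 0 of 168, 0 of 335 and 3 of 593 cases in the Mixed pair, where a count of 0 allows up to 1.79% and 0.896%. NfiX-only windows thus held the site about as often as common windows in the Mixed pair (NfiX-only minus common 1.17 points, −3.81 to 7.05). In the CD1 pair that difference was 3.25 points (−11.0 to 21.1), an interval too wide to show that the shares are alike. The NFIX class proper had 6 exonic windows, of which 3 held the shorter palindrome, Trip12 and Gm47388 among them, against 4 of 115 in the NFIA class (3.48%) and 65 of 229 in the shared class (28.4%). Among RefSeq promoters of 300 bases, 0.807% hold it and 0.0365% hold the full palindrome.

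**Figure D4:**
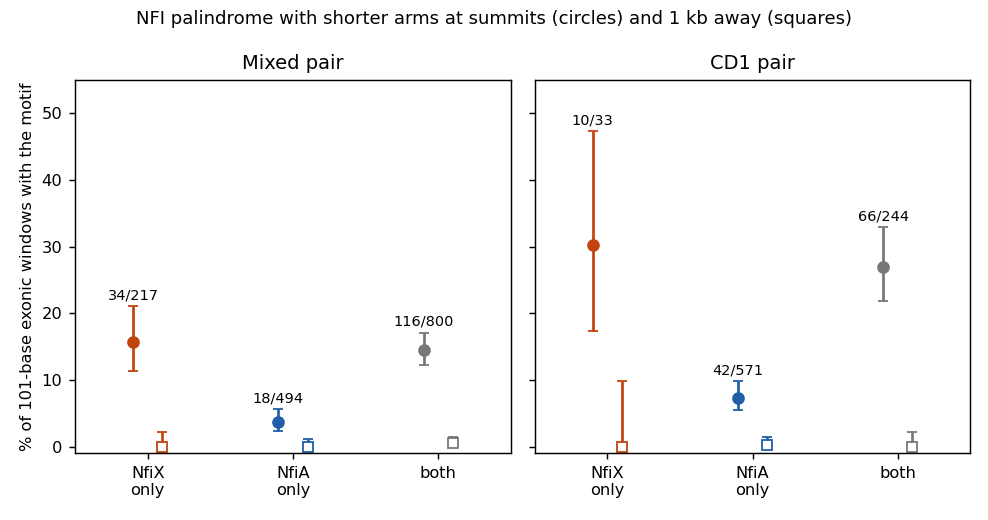
Share of exonic summit windows (y axis, %) that hold the palindrome with arms TGGC and GCCA, 5 bases apart, at summits (circles, with counts) and 1 kb away (open squares), for NfiX-only, NfiA-only and common regions of the Mixed and CD1 pairs; bars are 95% Wilson intervals. NfiX-only summits (15.7 and 30.3%) sit beside common summits (14.5 and 27.0%) and above NfiA-only summits (3.64 and 7.36%).

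For a single arm, the interval of the difference between NfiX-only and NfiA-only windows includes 0. The letters TTGGCA were in 26.7% of NfiX-only, 23.5% of NfiA-only and 29.6% of common windows of the Mixed pair, and in 4.78 to 6.55% of the flanking windows. The difference between the first and the second was 3.25 points (−3.47 to 10.4). In the CD1 pair it was −6.34 points (−16.6 to 10.2). NfiA-only windows held it less often than common ones, by −6.14 points (−10.9 to −1.16) in the Mixed pair and −13.2 (−20.3 to −6.27) in the CD1 pair. NfiX-only minus common was −2.90 (−9.24 to 4.07) in the Mixed pair and −19.5 (−30.9 to −2.29) in the CD1 pair. Of the other letters searched, the E-box CAGCTG of neural bHLH factors was in 12.4% of NfiX-only, 16.2% of NfiA-only and 18.8% of common windows (NfiX-only minus NfiA-only −3.75, −8.89 to 2.12; NfiX-only minus common −6.31, −11.0 to −0.644) of the Mixed pair. In the CD1 pair it was in 3.03% of 33 NfiX-only, 21% of NfiA-only and 18.0% of common windows, and NfiX-only minus NfiA-only was −18.0 points (−22.3 to −5.30). The homeodomain core TAATTA was in 4.61, 1.42 and 2.62% of the Mixed windows (3.19, 0.634 to 6.93). In the CD1 pair its NfiX-only minus NfiA-only difference was 2.91 points (−1.82 to 16.5, which includes 0). In all, 14 motifs were searched. In the Mixed pair the interval of that difference excluded 0 only for the homeodomain core and the palindrome forms. NfiA-only windows had a mean G and C content of 54.9% and common windows 54.2%, and NfiX-only windows were lower than both. The part of base composition in these shares was not tested.

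The strongest NFIX-class region lay between genes, 35.9 kb from the TSS of Fam107b and on its downstream side (chr2:3809702-3810033). Distances are given from the TSS, negative where the summit is upstream. Its fold was 10.7 in NfiX CD1 and 15.4 in NfiX Mixed, from 20 and 31 fragments at the summit, with no peak in either NfiA library. NfiA lists included low-background peaks with as few as 7 fragments. NfiB had weaker peaks there, with folds of 5.76 and 5.28. The other 9 of the 10 strongest regions of the class had summits of 13 to 30 fragments.

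Stag1, which encodes a cohesin subunit, was the gene with the most NFIX-class regions, 2 in all. Its stronger region lay in a coding exon (chr9:100927930-100928209), with folds of 10.8 in NfiX CD1 and 9.69 in NfiX Mixed, from 19 and 18 fragments. Mycl, a member of the Myc family of transcription factor genes, had a region at −14.8 kb (chr4:122980786-122981040) with folds of 7.72 and 11. An intron of Lrp1b, a lipoprotein receptor gene, held one at chr2:42537203-42537454 with folds of 8.08 and 10.2. Introns of Agbl4, Asic2, Negr1, Slc4a10 and Fras1 and a noncoding gene on chromosome 8 held the remainder of the 10 strongest. Asic2, Negr1 and Slc4a10 encode an acid-sensing channel, a neuronal adhesion molecule and a bicarbonate transporter, and these regions had no NfiB peak in either background.

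The 10 strongest NFIA-class regions all had NfiB peaks, of varied fold. The first lay at −91.2 kb from Cnr1, the cannabinoid receptor gene (chr4:33833270-33833554), with folds of 10.8 in NfiA CD1 and 8.13 in NfiA Mixed and of 17.5 and 12.4 in the NfiB libraries. Cnr1 also held one of the strongest shared regions, in an intron (chr4:33936172-33936789), with folds of 30.0 and 36.2 in NfiX and 26.6 and 33.3 in NfiA. An intron of Sergef held an NFIA-class region at chr7:46513620-46513965 with folds of 8.49 and 9.13, and a region near Btc, a growth factor gene, had 8.76 and 8.69 (chr5:91352690-91353090). The second strongest lay in Ckb-ps1, a pseudogene (chr17:53941908-53942149, folds 8.33 and 9.98), where reads may belong to a near-identical copy of Ckb, so its place is uncertain. The 10 had a peak in both NfiB libraries, with folds of 5.69 to 23.4, against 2 of the 10 strongest NFIX-class regions.

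In the Mixed pair the strongest NfiX-only region had peaks of NfiA in the other background. It lay at −9.05 kb from Usp6nl (chr2:6313389-6313783), with a fold of 16.3 in NfiX Mixed and no NfiA Mixed peak, and NfiX CD1 and NfiA CD1 held 18 and 19 fragments there. Of the 5 strongest NfiX-only regions, 3 had a peak in NfiA CD1. Of the 5 strongest NfiA-only regions, 1 had a peak in NfiX CD1, near Smg9. The strongest NfiA-only region near a gene was in an intron of Lmo7 (chr14:101903801-101904117), with a fold of 10.9.

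Shared regions were ranked alike by the factors. The strongest region of all 4 libraries lay far from any protein-coding TSS (chr10:15397051-15397543), with folds of 44.7 and 45.4 in NfiX and 40.2 and 29.5 in NfiA. Regions in introns of Scml4, Pard3, Nsd3, Zbtb16 and Fam49b were also among the 10 strongest. Over the 6236 shared regions, the rank correlation of fold (Spearman, across regions, which are not replicates) was 0.654 between the NfiX libraries, 0.688 between the NfiA libraries, 0.614 between the factors in CD1 and 0.781 between them in Mixed. The highest value was thus between the factors in Mixed, while the value between them in CD1 was below both values of the same factor. Pairs sharing neither factor nor background gave 0.602 (NfiX CD1 with NfiA Mixed) and 0.632 (NfiX Mixed with NfiA CD1). These libraries share local genome features, and NfiX CD1 has the fewest peaks.

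The rank of a shared region in NfiX relative to NfiA recurred little between backgrounds. The difference of percentile, NfiX minus NfiA, had a correlation of 0.176 between CD1 and Mixed, with the same sign in 55.8% of the regions. With the backgrounds crossed, NfiX CD1 set against NfiA Mixed and NfiX Mixed against NfiA CD1, the correlation was −0.0589, with the same sign in 48.3%. The difference between CD1 and Mixed had one of 0.225 between the factors, with the same sign in 57.3%. A shift of at least 25 percentile points to NfiX in both backgrounds was seen in 25 shared regions (0.401%) and to NfiA in 280 (4.49%). These counts also follow the percentiles of the short NfiX CD1 list. Its shared peaks stand at a median of 52.4 against 77.0 to 82.7 in the other lists.

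**Figure D5:**
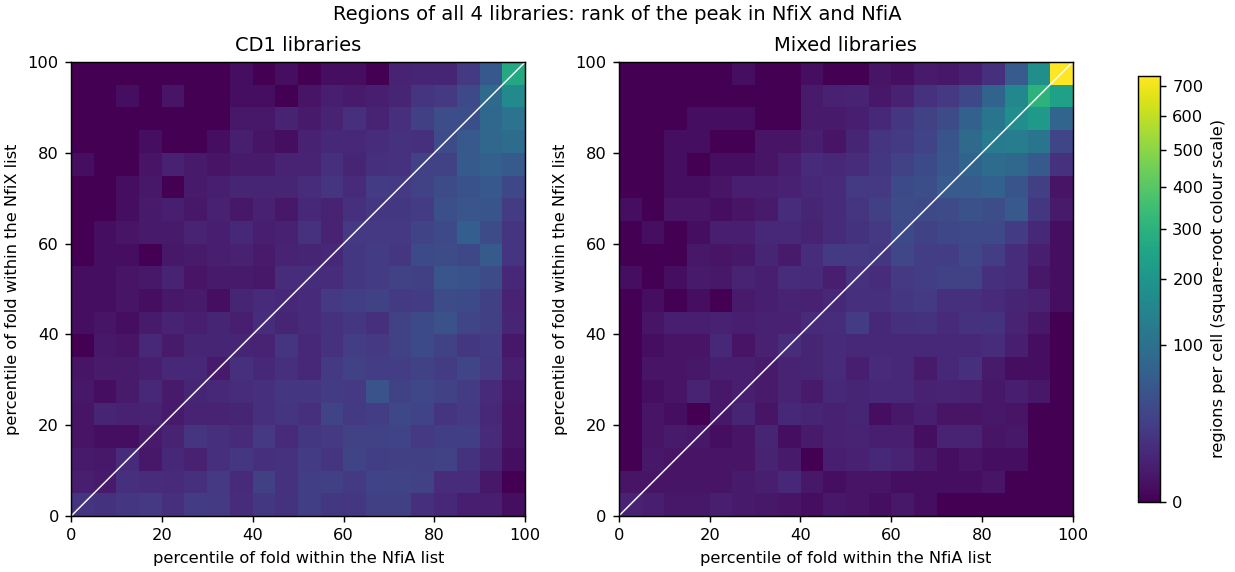
Number of shared regions (colour, square-root scale) by the percentile of their fold within the NfiA list (x axis) and the NfiX list (y axis), for CD1 and Mixed libraries, with the line of equal percentiles. The Mixed regions gather at the top of both lists (Spearman 0.781), and the CD1 regions spread below the line (0.614), where the NfiX list is the shorter.

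Individual shared regions with steady rank differences were of moderate fold. At an intron of Lasp1, an actin-binding protein gene (chr11:97809020-97809344), folds were 9.18 and 13.6 in NfiX against 5.46 and 5.73 in NfiA. An intron of Robo2, the gene of an axon guidance receptor, held a region with 7.57 and 6.47 against 4.78 and 3.90 (chr16:74182578-74183030). Nln and Tspan9 held others of this kind. In the other direction, St18, a zinc finger transcription factor gene, had a region at −3.62 kb (chr1:6483467-6483912) with folds of 4.19 and 4.21 in NfiX against 7.97 and 9.02 in NfiA, and an intron of Zfp618 had 3.95 and 4.50 against 9.60 and 9.21. Zc2hc1b, Gmpr and Akain1 held the rest near a gene. These regions were picked as extremes, so their folds carry no test.

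Peaks near the NFI genes themselves are given next for each library. Each region was counted under the nearest protein-coding TSS, up to 100 kb away, so a gene named here is a neighbour of the region and need not be regulated by it. Nfia was nearest to 13 regions, with NfiX peaks in 6 of them in CD1 and 10 in Mixed and NfiA peaks in 8 and 13. For Nfib the counts over 20 regions were 4, 10, 12 and 18. Nfic had 4, 5, 5 and 6 over 6 regions. Nfix had 0, 2, 2 and 6 over 6 regions, all weak, with folds of 2.37 to 3.90. The family had no NFIX-class region, a class found near 0.342% of all genes, so this count of 4 genes shows nothing particular to it. Its NFIA-class regions were 2 at Nfib, 1 at Nfia and 1 at Nfic. In the Mixed pair, the 4 genes had 16 NfiA-only and 0 NfiX-only regions beside 27 common ones.

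The strongest shared region at Nfia (chr4:97776320-97776842) lay in an intron that overlaps E130114P18Rik, at −1.09 kb from the nearest Nfia TSS. Its folds were 14.7 and 19.6 in NfiX (CD1, Mixed) and 11.9 and 12.1 in NfiA. At Nfib an intronic region (chr4:82592583-82593157) had no peak in NfiX CD1, a fold of 12.1 in NfiX Mixed and folds of 11.1 and 10.1 in NfiA. The Nfix promoter held a region (chr8:84774361-84774747) with a fold of 3.20 in NfiX Mixed and of 3.73 and 3.79 in NfiA, and no peak in NfiX CD1.

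Shared regions were frequent near genes of the neuronal lists, and NFIX-class regions were few near any genes. Of 21924 protein-coding genes, 75 were nearest to an NFIX-class region (0.342%), 999 to an NFIA-class region (4.56%) and 2573 to a shared region (11.7%). Of 36 cell adhesion genes, 2 had an NFIX-class, 9 an NFIA-class and 21 a shared region. The 29 ion channel genes gave 2, 8 and 16, the 26 synapse genes 0, 5 and 16, and the 34 axon guidance genes 0, 7 and 19. For 21 matched genes of neuronal migration the counts were 0, 8 and 11, and for 18 genes of neural bHLH factors and their partners 0, 4 and 10. In the adhesion, channel, synapse, guidance, migration and bHLH lists, 52.4 to 61.5% of the genes had a shared region, above 11.7% of all genes. The lists of granule neuron maturation (30.0%) and granule progenitors (28.6%) were also above it. NFIX-class regions were near 5.56% of the adhesion and 6.90% of the ion channel genes, each a count of 2, against 0.342% of all genes. Long genes with wide intergenic flanks collect more regions, and this was not adjusted for. The 23 cell cycle genes had 0, 1 and 3, and 25 ribosomal protein genes 0, 1 and 2.

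The NFIX-class members of these lists were few. In the list of granule progenitor genes, Gli3, a transcription factor of the Sonic hedgehog pathway, had an intronic region (chr13:15545433-15545669) with folds of 5.80 and 4.60 in the NfiX libraries (CD1, Mixed). Adgrl3, an adhesion receptor gene, had one with 8.62 and 7.14 (chr5:81367614-81367852), and Ncam1, the neural cell adhesion molecule gene, one with 6.46 and 4.76 (chr9:49746234-49746449). The sodium channel gene Scn3a had 5.71 and 6.97, and Cacna2d1, a calcium channel subunit gene, 6.10 and 4.88. All 5 were intronic, and the regions at Adgrl3, Ncam1, Scn3a and Cacna2d1 had no NfiB peak.

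NFIA-class members were more varied. Neurod1, a bHLH factor of granule neuron differentiation, had 4 NFIA-class regions and 1 shared region. The strongest of the 4 lay at −42.7 kb (chr2:79499343-79499568), with folds of 5.19 in NfiA CD1 and 4.66 in NfiA Mixed. Iqsec1 also had 4, beside 5 shared regions. Regions at Ccnd2, a cyclin gene of progenitor division (chr6:127147661-127147952, 4.21 and 4.88), and at Pax6 (chr2:105673765-105674144, 4.43 and 3.54) lay in exons outside the coding sequence. Tiam1, Reln, Astn1, Cdh12, Snap25, Gria4, Kcnb2 and Cdk6 were other members, with folds of 5.28 to 8.36. Of 21 astrocyte or glial genes, 1 had an NFIA-class region (4.76%, near the 4.56% of all genes), Slc1a3, a glutamate transporter gene (6.33 and 6.65), and 4 had a shared region (19.0%, against 11.7%).

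In the Mixed pair, 2185 genes were nearest to an NfiX-only region (9.97%), 3414 to an NfiA-only region (15.6%) and 5431 to a common region (24.8%). Of all NfiX-only and NfiA-only regions near a gene, 36.4% (35.3 to 37.5) were NfiX-only. The cell adhesion list gave 30 NfiX-only and 32 NfiA-only regions (48.4%, 36.4 to 60.6), the list of granule neuron maturation 19 and 21 (47.5%, 32.9 to 62.5) and the ion channel list 25 and 43 (36.8%, 26.3 to 48.6). For ribosomal proteins it was 1 against 7. Apart from the NFI genes, with 0 of 16 (0%, 0 to 19.4), no list's interval lay wholly on 1 side of 36.4%, the adhesion interval meeting it at its lower end. Of those 16 regions, 8 lay at Nfib, and the interval treats them as independent. It is also the interval of 1 list among 13.

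NfiX-only regions of the Mixed pair lay near more genes of the lists. Besides its NFIX-class region, Gli3 had one 10.6 kb from its TSS with a fold of 10.1 in NfiX Mixed (chr13:15474397-15474778), Etv1, a factor of granule neuron maturation, one with 9.19 (chr12:38818321-38818701) and Pard3, a polarity gene of migrating neurons, one with 9.16 (chr8:127227028-127227546). Nrcam, an adhesion gene, had 8.88 and Nlgn1, a synaptic adhesion gene, 8.60. Among NfiA-only regions, one at Pcdh15 had a fold of 7.39 in NfiA Mixed and one at Snap25 had 7.22. Auts2, a neurodevelopmental gene, had 5 NfiX-only, 5 NfiA-only and 18 common regions, and Rbfox3, the gene of the neuronal splicing factor NeuN, had 4, 8 and 16.

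Promoters of the NFIA and shared classes were compared by sequence. The 250 bases before the RefSeq start (GRCm38.p6, strand of the gene) are shown for the strongest promoter region of each class inside such a window. Capitals mark the palindrome at Oasl1 and the single arm TGCCAA at Flad1.
Flad1, NFIA class, minus strand, within chr3:89411832-89412131: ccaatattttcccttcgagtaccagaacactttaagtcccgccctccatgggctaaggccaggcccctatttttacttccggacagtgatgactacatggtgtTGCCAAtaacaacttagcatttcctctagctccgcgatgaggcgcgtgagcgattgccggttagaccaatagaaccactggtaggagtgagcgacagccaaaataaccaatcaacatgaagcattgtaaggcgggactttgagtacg
Oasl1, shared class, plus strand, within chr5:114922990-114923289: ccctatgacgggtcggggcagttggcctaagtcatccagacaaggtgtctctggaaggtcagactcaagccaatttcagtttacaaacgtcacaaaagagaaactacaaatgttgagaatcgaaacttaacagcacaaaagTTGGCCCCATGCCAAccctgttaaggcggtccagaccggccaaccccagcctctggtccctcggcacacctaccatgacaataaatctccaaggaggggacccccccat
At Flad1, the gene of an FAD synthase, the summit lay 21 bases upstream of the start. At Oasl1, an interferon-induced gene, the summit lay 94 bases upstream, beside the marked palindrome. The marked arm at Flad1 lay well upstream of the summit, before the middle of the printed bases, so it is not a site at the summit. Over the class, 10 of 53 NFIA-class promoter windows (18.9%) and 13 of 27 shared ones (48.1%) held TTGGCA on either strand, against 14.1% of 32851 promoters of the same length. The full palindrome was in 0 of 53 and 3 of 27. No NFIX-class promoter fell inside a RefSeq window. In the Mixed pair, 27.3% of 33 NfiX-only, 19.8% of 232 NfiA-only and 33.1% of 166 common promoter windows held TTGGCA.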

How the data were processed

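ChIP-seq peak lists of NfiX, NfiA and NfiB were used, 1 list per library, with CD1 and Mixed as the 2 libraries of a factor. Bowtie2 2.2.6, SAMtools 1.4.1, MACS2 2.1.0 and the build mm10 are named per the submitters' processing notes; whether the input was the control is not given in the sources used here, nor are read totals. The deposited lists give, per peak, a summit fold enrichment, which is a ratio to local background from the authors' peak caller. The deposited −log10 values, of p and of q, come from the same caller. The deposited score was not used. Depth is therefore unknown in reads, and was judged from summit fragments.

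Lists were merged at 1 bp of overlap. For each peak the Poisson equation linking its fold and p was solved for whole summit fragments and local background, to within 0.002 in −log10 p. Genes and exon sequences came from GENCODE M21 and promoters from RefSeq (GRCm38.p6). Shares carry 95% Wilson intervals and differences 95% Newcombe intervals; values of libraries were tested by an exact two-sided permutation (smallest possible p 0.333). Python 3.11.15, numpy 2.4.6, pandas 2.3.3, scipy 1.17.1 and matplotlib 3.10.9 were used. The scripts were tested on simulated data and recovered the planted values. Members, gene lists, motifs and tests were chosen with earlier results of these data known. Genes were named by rule: the 10 regions of highest mean fold percentile per class, 5 per side of the Mixed pair, 6 per direction of rank shift, and up to 3 genes per list and class; other regions named were chosen after their values were seen. Alternatives were equal list length, −log10 q of 5 or more, stricter overlap, other promoter definitions, wider windows, leaving out each library, the CD1 pair, and 4 added after the data were seen, the background as a block among them.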

Additional observations from a re-analysis of the deposited data

Results flagged for a closer look

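At equal list length the median fold of NfiX minus that of NfiA was −1.98 in CD1 and 0.814 in Mixed, so the backgrounds moved in opposite directions, with 1 library of each factor per background; the difference between backgrounds was not tested. The share of exonic windows with TTGGCA, NfiX-only minus NfiA-only, was −6.34 points in the CD1 pair (33 NfiX-only windows) and 3.25 in the Mixed pair. Both intervals include 0, and the difference between the pairs was not tested.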

How the results depend on the processing

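Of 92 values under alternatives, 63 were counted as the same, 28 as moved and 1 as turned in direction. A share difference counted as the same inside the interval of the main result, and a class size within a set ratio of it. For library values the sign alone decided. Values counted as the same could thus differ in size: without NfiA Mixed the promoter difference over the 4 lists was −2.59, beside −6.03. At equal list length the NFIX, NFIA and shared classes held 367, 449 and 3872 regions, the NfiB difference (NFIX minus NFIA) was −17.5 points, and the median fold difference between libraries turned to −0.582. Leaving out 1 library at a time gave 292 to 3651 NFIX-class, 1763 to 7480 NFIA-class and 6372 to 12073 shared regions, an NfiB difference of −70.7 to −2.27 and a promoter difference of −7.89 to −2.59. The CD1 pair in place of the Mixed pair gave 770, 10323 and 6654 regions, an NfiB difference of −27.7 and a promoter difference of −2.92. With TSSs of all gene biotypes the promoter difference was −8.30 over the 4 lists and −7.10 in the Mixed pair, and within 5 kb it was −8.00 in the Mixed pair. Alternatives added after the data were seen gave NfiB differences of −29.7 (4 lists) and −12.0 (Mixed pair) without low-background NfiX and NfiA peaks. Palindrome differences were 12.0 with shorter arms and 9.93 with both changes. The causes were not tested. With the background as a replicate block, also added after the data were seen, NfiX minus NfiA was −1.69 points for the promoter share (−1.86 in CD1, −1.51 in Mixed), 2.60 for the palindrome share (4.46, 0.737) and 0.359 for the median fold (0.196, 0.522); each gave p = 0.5 in an exact sign-flip test, the smallest that 2 pairs allow, and no call changed. Read depth is unknown, and the absence of a peak is no measure of absent binding.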
